A study of Sus scrofa with 27 samples.

Results

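The circadian clock genes described here are CLOCK, NPAS2, PER1, PER2, PER3, CRY1, CRY2, NR1D1, NR1D2 and DBP, measured in mural granulosa cells, the cells that line the wall of the ovarian follicle. They were taken as the rows of the count files whose pig Ensembl identifiers carry these symbols. Of the 10 genes listed, 9 had an identifier among the 35670 in each file, and 8 averaged 5 counts or more per library over all 27 and were tested. PER3 had no identifier in the symbol table, so its expression is not analysed here. NR1D1 had a mean count of 1.00 and was not tested.

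The animals were primiparous TN70 sows, a Large White and Norwegian Landrace cross with no engineered allele. Full-fed sows (FF) received 6.5 kg of feed per day and restricted sows (RES) 3.25 kg per day over the last 2 weeks of lactation, and ovaries were collected at day 2 after weaning. The labels give both diets full feed in the days after weaning, whereas the methods of the study give one common ration for all sows. Cells came by laser capture from the largest healthy follicle of each sow, so a library is 1 follicle of 1 sow, with 13 FF and 14 RES libraries. The sequenced sows had been picked from a larger trial for high body weight loss in RES and low loss in FF, so the groups stand for those extremes. Meals had fixed hours during lactation, no meal hours are stated for the days after weaning, and the hour at which each ovary was collected is not given in the sources used here.

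The clock is a feedback loop of transcription that runs in most cells, the ovary included. A heterodimer of BMAL1 with CLOCK or its paralogue NPAS2 binds E-boxes and switches on the PER and CRY genes, whose proteins return to the nucleus and repress the heterodimer. A second loop runs through the nuclear receptors NR1D1 and NR1D2 (REV-ERB alpha and beta), which repress BMAL1 transcription, and ROR receptors, which activate it. DBP is an output factor of the PAR bZIP family that binds D-boxes. In a working clock the activators and their targets peak at different hours, so a single collection gives one time in each animal.

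The letters of the promoters show which members carry a clock element next to the annotated gene start. The 250 bases upstream of the RefSeq gene start (Sscrofa11.1) were searched on both strands for the E-box CACGTG, its variant CACGTT, the D-boxes TTATGTAA and TTACGTAA, and the core of the ROR element TAGGTCA. All 10 members had such a window. CACGTG lay in those of PER1 and PER3 and in 6.40% of 19530 protein-coding promoters. CACGTT lay in those of CRY2 and NR1D1 and in 4.54% of all. A D-box lay in that of PER3 and in 0.870% of all, and TAGGTCA in those of CRY2 and DBP and in 2.58% of all. A match is a description of the letters, not a binding site. The 4 windows with a match in a gene that has counts are shown, each read 5′ to 3′ on the strand of its gene with the match in capitals. They are PER1 at chr12:53376724-53376973 (minus strand), NR1D1 at chr12:22263299-22263548 (plus), CRY2 at chr2:16620381-16620630 (minus) and DBP at chr6:53993045-53993294 (minus).
PER1: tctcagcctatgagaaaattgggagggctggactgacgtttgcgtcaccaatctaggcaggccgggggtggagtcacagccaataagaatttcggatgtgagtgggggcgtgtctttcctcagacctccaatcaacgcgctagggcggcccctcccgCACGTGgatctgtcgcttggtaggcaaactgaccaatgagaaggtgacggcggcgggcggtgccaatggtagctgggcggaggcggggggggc
NR1D1: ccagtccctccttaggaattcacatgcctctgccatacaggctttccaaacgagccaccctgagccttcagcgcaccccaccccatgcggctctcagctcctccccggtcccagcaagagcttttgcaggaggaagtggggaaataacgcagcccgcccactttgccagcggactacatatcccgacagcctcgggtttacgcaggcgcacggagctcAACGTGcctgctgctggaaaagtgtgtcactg
CRY2: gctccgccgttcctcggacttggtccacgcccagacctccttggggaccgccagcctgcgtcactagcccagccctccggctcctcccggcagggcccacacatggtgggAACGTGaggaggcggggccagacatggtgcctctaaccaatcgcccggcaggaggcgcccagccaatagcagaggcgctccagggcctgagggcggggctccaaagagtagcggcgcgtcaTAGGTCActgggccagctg
DBP: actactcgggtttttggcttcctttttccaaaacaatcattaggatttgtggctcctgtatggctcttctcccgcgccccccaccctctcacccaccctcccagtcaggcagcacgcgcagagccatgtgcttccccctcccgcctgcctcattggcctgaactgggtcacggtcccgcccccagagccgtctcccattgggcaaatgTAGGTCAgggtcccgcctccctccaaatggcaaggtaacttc

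The match of PER1 begins 93 bases before the gene start, that of NR1D1 32 bases before it and that of DBP 42 bases before it. CRY2 holds both a CACGTT (on the opposite strand, read as AACGTG) and a TAGGTCA.

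Library totals ran from 12299220 to 16021200 counts in FF and from 12942198 to 18120922 in RES. Of 9 granulosa markers with an identifier, FSHR (568 normalised counts in FF and 783 in RES on average), INHA, INHBA, INHBB, FST, VCAN, CYB5A and NR5A2 had at least 171 counts in every library, while AMH had as few as 1. The edgeR quasi-likelihood test called 1610 of 11384 named genes at an adjusted p under 0.05 (Benjamini-Hochberg), 944 higher and 666 lower in RES. With DESeq2 size factors the calls were 1197 higher and 522 lower. Cell cycle genes were called higher in 15 of 17 tested, with summed levels of 6606 to 38384 in FF and 17197 to 78176 in RES. Endothelial markers were called lower in 3 of 7 (850 to 1535 in FF, 571 to 1799 in RES), theca markers in 1 of 9 (9716 to 41124 and 3225 to 35260), stroma and smooth muscle markers in 1 of 10 (7510 to 29483 and 6481 to 26977), erythroid markers in 1 of 2 (35.5 to 1045 and 9.63 to 147) and immune markers in 0 of 6 (97.2 to 550 and 50.8 to 417), where 3 had an unadjusted p under 0.05. No marker of these lists with an identifier was at 0 in all libraries. FF sow 10 and RES sows 3 and 5 stood apart in the slope of expression on exon GC content, at 0.39, 0.34 and 0.25 on the log2 scale per 10 percentage points of GC, against 0.13 for the next library. The study's table of RNA quality, matched to libraries by sow number, lists FF sow 10 with the lowest RNA integrity number (RIN) of the sequenced sows. Its methods leave out an FF sow with an abnormal RIN pattern, without naming it. RES sows 3 and 5 have the lowest base quality in the study's tables, and RES sow 3 the lowest RIN of RES. Without FF sow 10 the test called 2086 genes and none of the clock members, with NPAS2 at -0.28 (adjusted p = 0.0794 by edgeR) and BMAL1 at -0.81 (0.00169). In pooled RNA of captured cells, fewer cells of a type and less RNA per cell cannot be told apart.

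In the edgeR test none of the 8 tested clock genes passed the adjusted threshold in RES against FF, where 14.1% of all tested genes did. An unadjusted p under 0.05 was reached by 2 of the 8, NPAS2 and PER2, against 30.0% of all tested genes. DESeq2 called 1 of the 8, where it called 17.3% of the genes with an adjusted p, and limma-voom with sample quality weights called 2, where it called 28.0% of all. These shares are close to the background. The log2 fold change was below 0 for 7 of the 8, with a median of -0.24, while 52.7% of all tested genes were below 0, with a median of -0.02. The 2 values nearest to 0, CLOCK and CRY1, turned above 0 with DESeq2 size factors. Values below are counts normalised by DESeq2 size factors, as mean ± SD over sows.

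**Figure D1:**
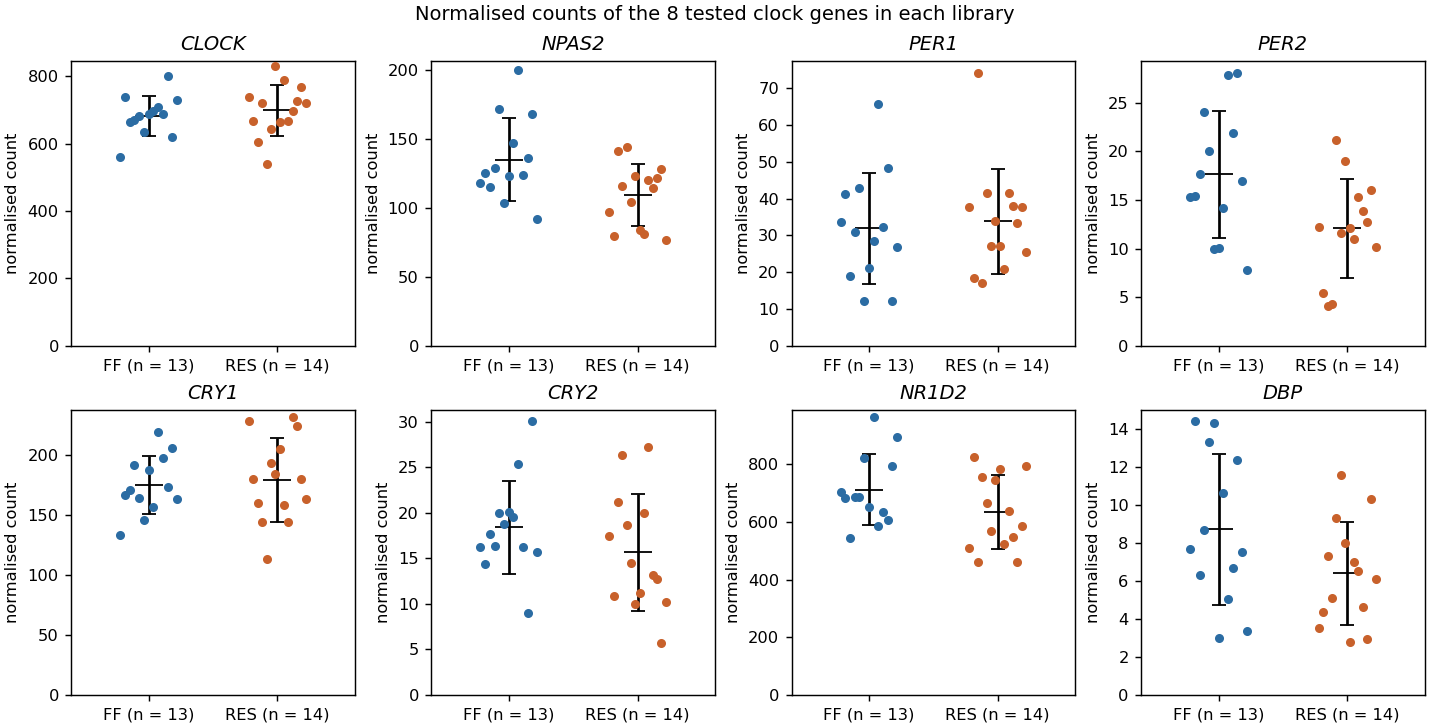
Each panel plots the normalised count (y axis, linear, from 0) of 1 clock gene in the 13 FF and 14 RES libraries, 1 point per sow, with the mean and SD in black. The groups overlapped for all 8 genes, and NPAS2, PER2 and DBP each had 4 FF sows above the highest RES sow.

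Of the activating subunits, CLOCK had the higher level and NPAS2 the log2 fold change farther from 0, and the difference between their diet values was not tested. CLOCK had its lowest, median and highest value at 561, 687 and 802 in FF and at 538, 708 and 831 in RES. The ranges were nearly the same, and 6 of 14 RES sows lay below the FF median. CLOCK averaged 683 ± 59.1 in FF and 699 ± 75.8 in RES (SD), a log2 fold change of -0.01 (95% interval -0.15 to 0.13) with an adjusted p of 0.947 in the edgeR test, and 0.03 with DESeq2 size factors. In the RefSeq models 44.3% of CLOCK exon bases overlap TMEM165 on the opposite strand. The counting options that the study lists name neither strand nor the handling of overlapping genes. CLOCK could thus have lost reads over the shared bases or hold reads of TMEM165.

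NPAS2 ran from 91.7 over 125 to 200.1 in FF and from 76.6 over 115 to 144 in RES. The 4 highest sows were all FF, the 4 lowest all RES, and 11 of 14 RES sows lay below the FF median. The means were 135 ± 30.0 and 109 ± 22.7, so the log2 fold change came to -0.35 (SE 0.12, 95% interval -0.59 to -0.10) with p = 0.00726 and an adjusted p of 0.0507 in the edgeR test. This value sat at the threshold. DESeq2 gave an adjusted p of 0.030, the fit with the GC slope of each library 0.0059, and the fit without FF sow 10 and RES sows 3 and 5 0.034. It passed in 6 of 17 alternative fits and did not in the others, among them DESeq2 size factors (adjusted p = 0.083), the RIN covariate (0.081), no count filter (0.071), all identifiers (0.10) and the theca covariate (log2 fold change -0.23, 0.27). Leaving out any one of FF sows 1, 3, 4, 6 and 14 or RES sows 3, 4, 5, 7 and 10 took it past the threshold (adjusted p 0.031 to 0.0495), and leaving out any other did not. In the libraries of higher base quality the log2 fold change was -0.14 and in those of lower quality -0.55, a difference of 0.41 (SE 0.22) with an adjusted p of 0.448 for the interaction in edgeR. Per kilobase of exon, CLOCK had 100.1 normalised counts in FF and NPAS2 22.4.

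Among the repressors, PER2 had the log2 fold change farthest from 0, and none passed the adjusted threshold. PER1 is also an immediate response gene to light, hormone and cAMP signals. Its values were 12.1, 30.8 and 65.8 (lowest, median and highest) in FF and 17.0, 33.6 and 74.3 in RES. The highest value in each diet was in FF sow 10 and RES sow 3, which were among the libraries with the steepest GC slope. PER1 averaged 31.9 ± 15.1 and 33.9 ± 14.3, a log2 fold change of 0.04 (95% interval -0.43 to 0.50, adjusted p = 0.937 by edgeR). It was 0.42 with the theca marker level as a covariate and 0.32 with the endothelial level (adjusted p = 0.256 and 0.539 by edgeR).

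PER2 ran from 7.82 over 16.9 to 28.1 in FF and from 4.08 over 12.2 to 21.2 in RES. The 4 highest sows were FF, the 3 lowest were RES, and 12 of 14 RES sows lay below the FF median. The means were 17.6 ± 6.56 and 12.1 ± 5.08, from 5 to 25 counts per library. The log2 fold change was -0.58 (SE 0.24, 95% interval -1.06 to -0.10, p = 0.0196, adjusted p = 0.0932 by edgeR), and limma-voom gave an adjusted p of 0.040. With the theca marker level as a covariate it was -0.27 and with the endothelial level -0.30.

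CRY1 had 133, 170.4 and 219 in FF and 113, 180 and 231 in RES. The RES sows held both the lowest and the 3 highest values. The log2 fold change was -0.01 (95% interval -0.21 to 0.19, adjusted p = 0.951 by edgeR), and 0.03 with DESeq2 size factors. CRY1 exons overlap MTERF2 over 13.9% and TMEM263 over 9.15% of their bases. CRY2 had 8.99, 17.7 and 30.1 in FF and 5.73, 13.8 and 27.3 in RES, from 5 to 32 counts per library. Of the RES sows 9 of 14 lay below the FF median, and the ranges overlapped almost fully. Its log2 fold change was -0.27 (95% interval -0.68 to 0.14, adjusted p = 0.387 by edgeR). The CRY2 value had opposite signs in the read quality groups, 0.11 in the higher and -0.71 in the lower, and the interaction had p = 0.0401 and an adjusted p of 0.393 in edgeR.

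In the second loop, NR1D2 was counted in every library and NR1D1 in few. NR1D2 had 544, 686 and 963 in FF and 460.3, 613 and 827 in RES. It had the highest level per kilobase of exon of the members, 136 in FF, where overlaps such as that of CLOCK with TMEM165 were not taken out. The 4 lowest sows were RES and the 2 highest FF. NR1D2 averaged 712 ± 123 and 634 ± 128, a log2 fold change of -0.21 (95% interval -0.43 to 0.02, adjusted p = 0.209 by edgeR). NR1D1 had no count in 8 FF and 9 RES libraries. Its highest count was 15, in RES sow 3, and 41.1% of its exon bases overlap THRA on the opposite strand, so no diet comparison is given for it.

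DBP, the output factor, had the fewest counts of the tested members, 3 to 15 per library. It had 3.01, 7.67 and 14.4 normalised counts in FF and 2.80, 6.34 and 11.6 in RES. The 4 highest sows were FF and 10 of 14 RES sows lay below the FF median. DBP averaged 8.72 ± 3.97 and 6.40 ± 2.73, a log2 fold change of -0.49 (95% interval -1.01 to 0.02, p = 0.0595, adjusted p = 0.184 by edgeR). The DBP value was -0.04 with the cell cycle level as a covariate, -0.07 with the endothelial marker level and -0.24 with the theca level. Over sows within diets DBP had an r of -0.34, 0.53 and 0.41 with these levels, given as descriptions. Their part in the DBP value was not tested.

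**Figure D2:**
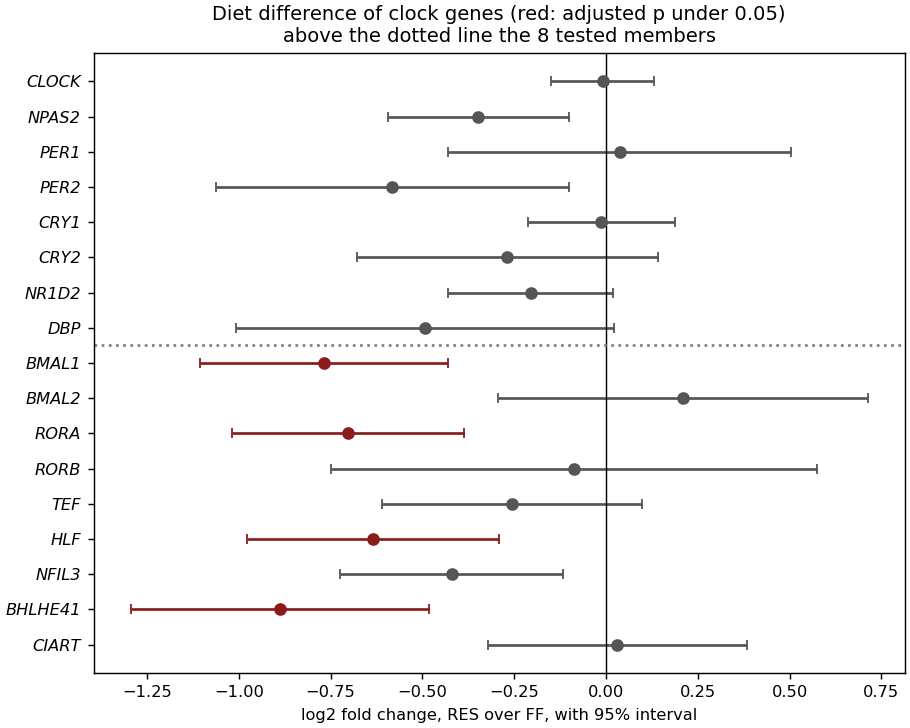
The x axis is the log2 fold change of RES over FF from the edgeR fit with its 95% interval, and each row of the y axis is 1 gene, the 8 tested members above the dotted line and the tested activators, receptors, D-box and E-box factors below it. Red marks an adjusted p under 0.05, which BMAL1, RORA, HLF and BHLHE41 had and no member had.

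The partner that the listed genes act with, BMAL1, was lower in RES. It ran from 43.1 over 79.8 to 122 in FF and from 28.0 over 46.9 to 73.9 in RES. The FF median exceeded each of the 14 RES sows, and 8 FF sows lay above the highest RES sow. The means were 77.3 ± 24.5 and 46.5 ± 12.5, which is a change of -0.77 on the log2 scale (SE 0.17, 95% interval -1.11 to -0.43, adjusted p = 0.00311 by edgeR). Calls of this direction made up 5.85% of all tested genes, and calls in the other direction 8.29%. RORA, the receptor that activates BMAL1, fell by 0.70 on the log2 scale (SE 0.15, adjusted p = 0.00343), from 196 ± 51.4 to 123 ± 36.9, with 13 of 14 RES sows below the FF median. Of the list of activators and ROR receptors, 2 of the 4 tested were called, both lower. BMAL2 (log2 fold change 0.21, adjusted p = 0.604 by edgeR) and RORB (-0.09, adjusted p = 0.890) did not pass.

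Among the D-box and E-box factors 2 of 5 tested were called, both lower. BHLHE41, an E-box repressor also named DEC2, fell from 59.5 ± 19.2 to 33.0 ± 11.5, a change of -0.89 on the log2 scale (SE 0.20, adjusted p = 0.00389 by edgeR), and 9 RES sows lay below the lowest FF sow. HLF, a PAR bZIP factor like DBP, fell from 57.7 ± 18.9 to 38.2 ± 11.0 (log2 fold change -0.64, SE 0.17, adjusted p = 0.0123 by edgeR). NFIL3, the repressor at the D-box, had -0.42 with an adjusted p of 0.0548, TEF -0.26 (0.332) and CIART 0.03 (0.930) in edgeR.

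**Figure D3:**
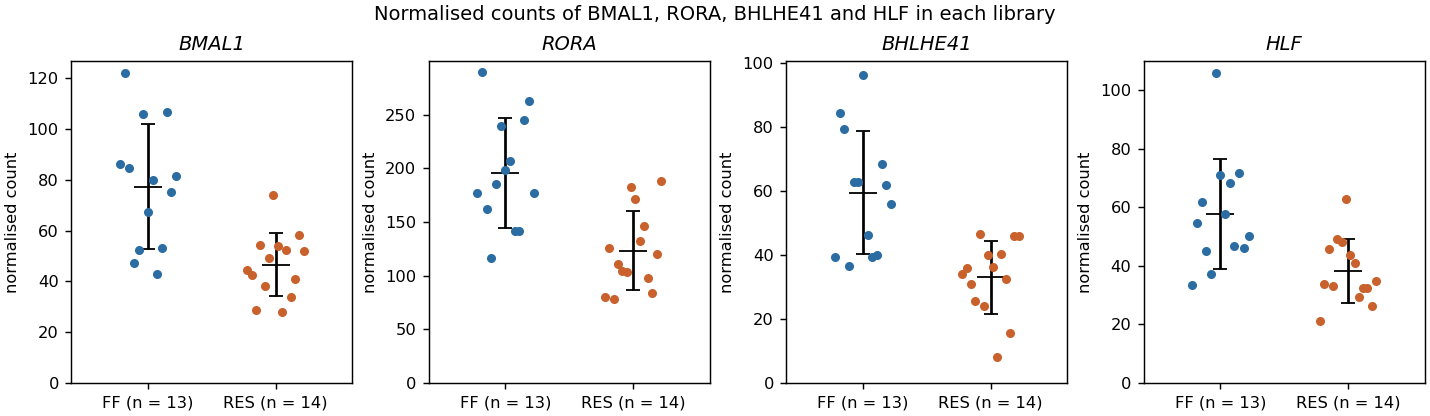
The normalised count (y axis, linear, from 0) of BMAL1, RORA, BHLHE41 and HLF is plotted for each of the 13 FF and 14 RES sows, with the mean and SD in black. The FF median exceeded 14 of 14 RES sows for BMAL1 and BHLHE41 and 13 of 14 for RORA and HLF.

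Since CLOCK and BMAL1 are read in the same library, their ratio hardly depends on the scaling between libraries. The log2 ratio of BMAL1 to CLOCK was -3.19 ± 0.47 in FF and -3.92 ± 0.36 in RES (SD), a difference of -0.73 with 14 of 14 RES sows below the FF median (two-sided permutation test, p = 8e-05, adjusted p = 0.00016 over both ratios). The log2 ratio of BMAL1 to NPAS2 was -0.83 ± 0.68 and -1.23 ± 0.50, a difference of -0.40 that did not pass (p = 0.090, adjusted p = 0.090, permutation test). BMAL1 was already called in these same libraries, so the p of its ratio to CLOCK is no separate support for the BMAL1 difference. As a description, that difference exceeded that of CLOCK and was not shown to exceed that of NPAS2.

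The co-regulators and output genes of the clock had calls at shares around the 14.1% of all tested genes. Of the co-regulators 2 of 20 passed, both higher, TIPIN (0.69, adjusted p = 0.00821), the partner of TIMELESS that also serves the replication fork, and WDR5 (0.73, adjusted p = 0.0158), a scaffold of histone methyltransferases. Of the output genes 2 of 11 passed, both higher, the mitosis-entry kinase WEE1 (0.51, adjusted p = 0.0261) and TSPO (0.76, adjusted p = 0.0358), a cholesterol transport protein of the mitochondrion. WEE1 did not pass without RES sow 1 (adjusted p = 0.0503). TSPO did not pass without any one of FF sows 2, 6, 8, 12 and 14 or RES sows 3, 9, 11 and 13 (0.0509 to 0.0712), nor without FF sow 10 and RES sows 3 and 5 together (0.0626), nor in the higher read quality group (0.262). With the theca covariate TIPIN (0.59), TSPO (0.80) and WEE1 (0.30) did not pass (adjusted p = 0.0741, 0.0812 and 0.268 by edgeR), and of these log2 fold changes only that of WEE1 was below its reported value by over 1.5 times. With the cell cycle covariate TIPIN had a log2 fold change of 0.02, TSPO 0.00030, WDR5 0.27 and WEE1 -0.17.

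Other lists that bear on clock genes are given by their counts, against the 14.1% of all tested genes called. None of 9 tested immediate early and cAMP response genes was called by edgeR, and none had an unadjusted p under 0.05. Of 6 tested glucocorticoid targets 1 was called, lower, with a list median of -0.23. Of 9 genes of the temperature and heat shock list 2 were called, both higher, with a median of 0.31.

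Some clock genes, called or not, were negatively related to the proliferation level, and others were not. Over sows within diets, the cell cycle level had an r of -0.69 with BMAL1, -0.73 with RORA, -0.42 with HLF and -0.42 with BHLHE41. Among the members, none of them called, it had -0.55 with NR1D2 and -0.34 with CLOCK and DBP. It had 0.34 with CRY1, 0.25 with CRY2, 0.08 with NPAS2, 0.06 with PER1 and 0.03 with PER2. The granulosa marker level had -0.56 with BMAL1, -0.58 with RORA, -0.38 with HLF and -0.19 with BHLHE41. Among the members that level had -0.58 with NR1D2, -0.44 with CLOCK and -0.03 with CRY1. It had 0.11 with DBP, 0.14 with CRY2, 0.21 with PER2, 0.37 with NPAS2 and 0.56 with PER1. All these r are descriptions. With the cell cycle level as a covariate edgeR called 0 of all genes (422 with an unadjusted p under 0.05). BMAL1 then had a log2 fold change of -0.23, RORA -0.17, HLF -0.27 and BHLHE41 -0.48, while NPAS2 had -0.37 and PER2 -0.58. The cell cycle level and diet overlap in these sows, and its part in the BMAL1 and RORA differences cannot be told apart from diet. With the endothelial level as a covariate 29 genes were called and none of the clock genes, with BMAL1 at -0.65 (adjusted p = 0.0863). In the lower read quality libraries alone 1 gene was called, and BMAL1 had -0.61 (adjusted p = 0.331). In the higher group BMAL1 had -0.92 (adjusted p = 0.0141). BHLHE41 had -1.36 in the higher and -0.44 in the lower group (adjusted p = 0.0111 and 0.388, edgeR), and HLF -0.91 and -0.35 (0.0141 and 0.610). With the theca level as a covariate HLF did not pass (-0.57, adjusted p = 0.0513 by edgeR).

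Among the tested members, the spread between sows of one diet was smallest for CLOCK and CRY1 and largest for the PER genes. The biological coefficient of variation of edgeR was 0.13 for CLOCK, 0.18 for CRY1, 0.21 for NPAS2 and NR1D2, 0.28 for CRY2, 0.30 for DBP, 0.34 for PER2 and 0.38 for PER1. It lay below the trend for genes of the same count in 7 of the 8 members, and in 71.2% of all tested genes. PER1 was the exception, at 0.38 against a trend of 0.36. Over all sows the highest value was 1.54 times the lowest for CLOCK, 2.09 times for NR1D2, 5.15 times for DBP, 6.13 times for PER1 and 6.89 times for PER2, counting error included.

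**Figure D4:**
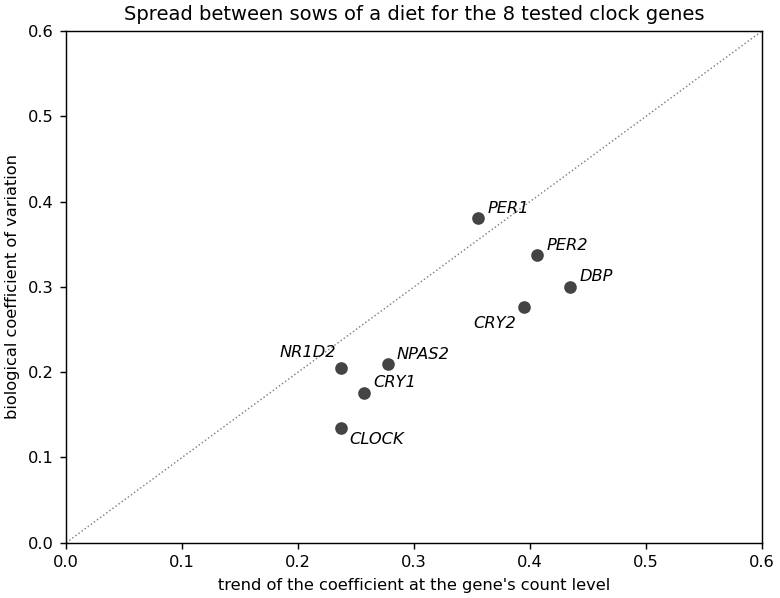
The y axis is the biological coefficient of variation of each tested member between sows of one diet and the x axis the trend of that coefficient over all tested genes at the same count level, both without unit, with the dotted line at equality. CLOCK has the lowest coefficient, 0.13, and PER1 alone lies above the line.

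The activators, repressors and second-loop receptors were next compared with each other over sows, after the mean of each diet had been subtracted. Of the 28 pairs of tested members, 14 had a positive r and the median was -0.01, against 0.008 over all pairs of tested genes. An r of at least 0.5 was reached by 1 of the 28 and by 5.51% of all gene pairs, and an r of at most -0.5 by 0 of the 28 and 4.10% of all. No pair passed after adjustment over the 28 by permutation within diets, within FF alone or within RES alone, and no pair differed between diets. An unadjusted permutation p under 0.05 was reached by 7 pairs within diets, by 3 in FF alone, by 2 in RES alone and by 1 for the difference.

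The most correlated pair was NPAS2 with PER1. Its r was 0.53 (permutation p = 0.0058, adjusted p = 0.16), rho was 0.56 (p = 0.0032, adjusted p = 0.09), and r was 0.47 without the 2 farthest sows. It was 0.41 in FF, 0.68 in RES, 0.39 in the higher and 0.52 in the lower read quality group. Without FF sow 13 it was 0.70 (adjusted permutation p = 0.0022). Once the GC slope of each library was taken out, r was 0.04. That slope had an r of 0.74 with NPAS2 and 0.69 with PER1, as a description. The level of the immediate early and cAMP response genes had 0.50 with NPAS2 and 0.70 with PER1. The part of either in the pair was not tested. Of the other pairs with an unadjusted p under 0.05, the slope took PER1 with NR1D2 from -0.46 to -0.25, PER1 with PER2 and NPAS2 with PER2 both from 0.39 to 0.24, CLOCK with CRY2 from -0.41 to -0.33, CLOCK with CRY1 from 0.41 to 0.38 and CRY1 with DBP from -0.45 to -0.43. Other pairs moved away from 0, PER1 with CRY2 from -0.12 to -0.53, CLOCK with PER1 from 0.05 to 0.40, PER2 with CRY2 from -0.26 to -0.42 and CRY1 with NR1D2 from -0.33 to -0.47.

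The pair of PER genes had an r of 0.39 (permutation p = 0.042, adjusted p = 0.19), with a rho of 0.50 (p = 0.0087, adjusted p = 0.12). It was 0.68 (adjusted permutation p = 0.0042) without RES sow 3, where NPAS2 with PER2 also passed (r 0.58, adjusted permutation p = 0.030), and 0.63 without FF sow 10 and RES sows 3 and 5. CLOCK with CRY1 had 0.41 and CLOCK with CRY2 -0.41, and the former was 0.02 without the 2 farthest sows. PER1 with NR1D2 had -0.46 (permutation p = 0.013, adjusted p = 0.16) and CRY1 with DBP -0.45 (permutation p = 0.018, adjusted p = 0.16). PER1 with NR1D2 was -0.28 in the higher and -0.79 in the lower read quality group. The pair with the smallest permutation p for a difference of r between diets was CRY1 with CRY2, 0.37 in FF and -0.44 in RES (p = 0.023, adjusted p = 0.65). CLOCK with PER1 differed by slightly more, 0.48 in FF and -0.35 in RES (permutation p = 0.056, adjusted p = 0.65).

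**Figure D5:**
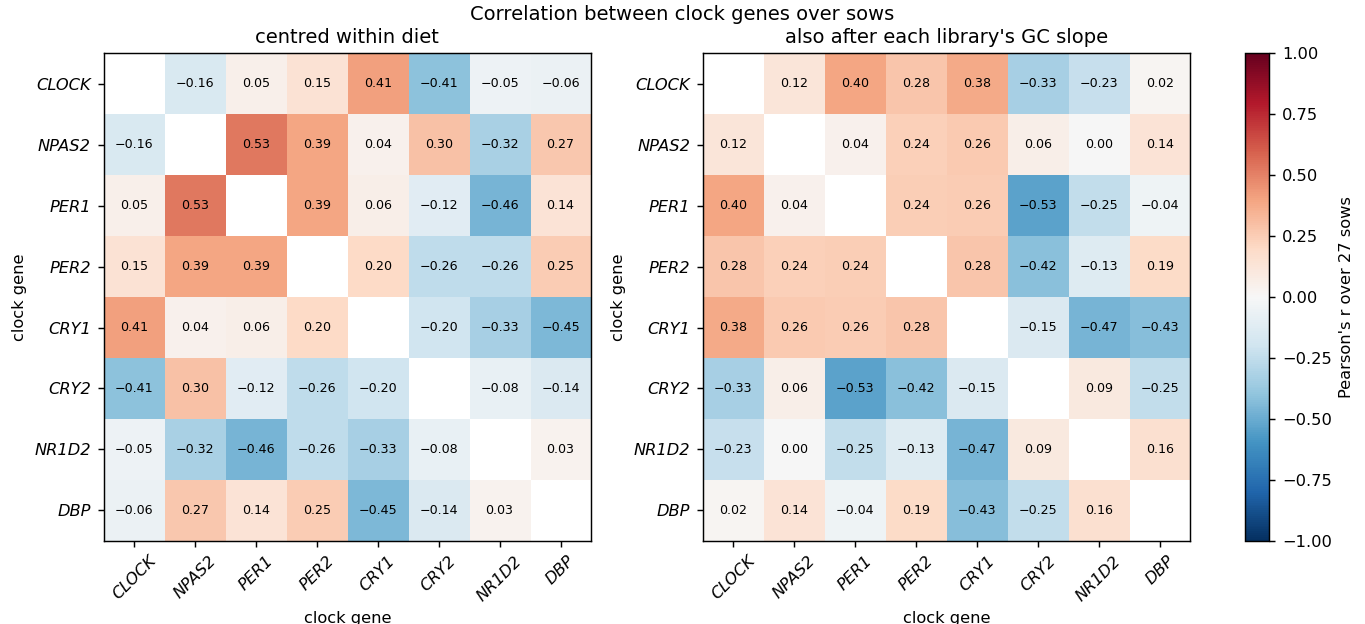
Each cell is Pearson's r over 27 sows between 2 clock genes (both axes) on the log2 scale, centred within diet on the left and with the GC slope of each library also removed on the right. The NPAS2 and PER1 cell goes from 0.53 to 0.04, the PER1 and CRY2 cell from -0.12 to -0.53, and the CRY1 and DBP cell from -0.45 to -0.43.

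Between the limbs, CLOCK and NPAS2 paired with the other 6 members gave 8 positive r of 12, from -0.41 to 0.53 with a median of 0.10. Among the 6 themselves, 6 of 15 were positive, with a median of -0.12. The mean of CLOCK and NPAS2 and the mean of the other 6, NR1D2 and DBP included, had an r of 0.52 over all sows. It was 0.75 in FF, 0.21 in RES and 0.47 over all sows once the GC slope was taken out. These are descriptions with no test. BMAL1 was most positively related to NR1D2 (r 0.42, permutation p = 0.029, adjusted p = 0.12; rho 0.41) and most negatively to CRY2 (r -0.41, p = 0.030, adjusted p = 0.12), and no member passed. These were 0.34 and -0.33 without the 2 farthest sows, 0.38 and 0.18 in the higher read quality group, and 0.43 and -0.73 in the lower, and 0.26 and -0.29 once the GC slope was taken out.

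The genes most like NPAS2 over the 27 libraries, among 9508 with a mean normalised count of at least 20, were FAM3A (r 0.87), NDST1 (0.84), WWP2 (0.81), VARS2 (0.80) and EARS2 (0.80), with exon GC contents of 58.4% to 68.1%. The least like were GNB4 (-0.85), RBPJ (-0.79), DOP1A (-0.79), SANBR (-0.79) and PUM2 (-0.79). NPAS2 itself has 52.7% GC. DBP was most like HSD3B7 (0.75), a bile acid enzyme, the endothelial gene ESM1 (0.69), SYNGR1 (0.68), NFKBIB (0.67) and ABHD2 (0.66), and least like ZFP30 (-0.66), CCDC18 (-0.65), B4GALT6 (-0.63), TRA2A (-0.62) and SFPQ (-0.62). These likenesses are descriptions and share library, depth and GC content.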

How the data were processed

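Mural granulosa cell RNA was rRNA-depleted and sequenced with unique molecular identifiers. Per the labels and methods, the authors aligned reads to Sscrofa11.1 with HISAT2 2.2.1, handled alignments with SAMtools 1.16.1, removed duplicate molecules with UMI-tools 1.1.4 and deposited raw counts per gene from featureCounts 1.6.2 (Ensembl release 110). The listed counting options name neither strand nor the handling of overlapping genes, so genes on opposite strands may lose or share reads. Here, edgeR 4.0.16 (TMM, quasi-likelihood, no covariate) tested 11384 named genes with a mean count of at least 5, leaving out 38 small RNAs. Normalised counts use DESeq2 1.42.0 size factors. Correlations used log2(normalised count + 1) centred within diets, with 100000 permutations, two-sided. The GC slope is the slope of each library's log2 deviations on RefSeq exon GC. Read quality groups divide libraries at a chosen gap in base quality in the study's tables. A wider gap, lower down, sets RES sows 3 and 5 apart. In simulated data for RES against FF over 11384 genes, 56.0% of genes changed by 0.58 on the log2 scale and 82.0% of those changed by 1 were recovered. Sows with the same number in both diets did not vary together (median r 0.011 over 13 numbers). The members, gene lists and named-gene rule (all members, called genes of the clock lists, the 5 most and least like NPAS2 and DBP) were chosen with earlier results of these data known. R 4.3.3, limma 3.58.1 and Python 3.11.15 were used. The results of 1 gene list are not reported here.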

Additional observations from a re-analysis of the deposited data

How the results depend on the processing

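Precision is limited by depth for DBP, PER2, CRY2 and NR1D1, whose counts are few in each library, and the hour of collection was not available as a covariate. The count of genes called was 1 in the lower read quality group, 3193 with limma-voom quality weights, 0 with the cell cycle covariate, 29 with the endothelial covariate and 750 with the theca covariate, and it ran from 1182 to 2350 when each sow was left out. The count of clock members called, 0 as reported, was 1 (NPAS2) with DESeq2, with the edgeR filterByExpr filter (which drops DBP), with the read quality covariate, with the GC slope covariate and without FF sow 10 and RES sows 3 and 5, and 2 (NPAS2 and PER2) with limma-voom. It ran from 0 to 1 when each sow was left out. The covariates other than read quality, RIN and cell cycle, and the fit without the 3 libraries, were chosen after seeing the data. The causes of these shifts were not tested.

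The count of correlated pairs within diets, 0 as reported, was 1 without the log scale (NPAS2 with PER1), 4 with library-total scaling (CPM; CLOCK with CRY1, and NPAS2 with PER1, PER2 and CRY2), 1 without FF sow 10 and RES sows 3 and 5 (PER1 with PER2), and 0 to 2 when each sow was left out.

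Values near 0 changed sign. CLOCK, -0.01 as reported, was 0.032 with DESeq2 size factors, 0.0039 with no count filter, 0.034 with all identifiers, 0.015 in the upper read quality group, 0.0046 with limma-voom, 0.11 with the cell cycle covariate, 0.0014 with the theca covariate and 0.052 without the 3 libraries, and -0.035 to 0.016 when each sow was left out. CRY1 was 0.034 with DESeq2 size factors, 0.0027 with no count filter, 0.035 with all identifiers, 0.073 in the upper read quality group, 0.080 with limma-voom and 0.090 without the 3 libraries, and -0.046 to 0.028 when each sow was left out. PER1 was -0.11 in the lower read quality group and -0.044 with the cell cycle covariate, and -0.088 to 0.18 when each sow was left out. CRY2 was 0.11 in the upper read quality group, NR1D2 0.083 with the cell cycle covariate and WEE1 -0.17 with it.

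With the sow number as a replicate block, though the numbers did not pair the sows (1 of 13 correlations over 0.1), 1084 genes and 0 members were called, BMAL1 was -0.70, and WDR5 and WEE1 no longer passed (adjusted p = 0.0521 and 0.0916, edgeR).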
